A study of Ginkgo biloba with 9 samples.

Results

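Well expressed genes whose transcript level changed little while leaves of Ginkgo biloba turned from green to yellow were described here gene model by gene model. RNA was sequenced from leaves of 3 healthy adult trees growing outdoors, picked green at the mature stage on September 12, at the turning stage on October 26, and yellow at the senescence stage on November 8, with 3 libraries per stage. All stages come from the same trees, under natural conditions, the labels do not say which library came from which tree, and each stage was sampled on 1 date, so stage and date cannot be told apart. The values are normalized counts, that is, read counts divided by the DESeq2 median-of-ratios size factor of the library, a scaling in which the typical gene model has a ratio of 1 between libraries. Members were chosen by the measured values themselves: a normalized count of at least 1350 in each of the 9 libraries, a highest value at most 1.5 times the lowest, and a place outside the 100 models with the highest mean in green or in yellow leaves. Of 43834 gene models, 2212 reached the minimum in every library and 199 of these were members, 8.996% of the well expressed models and 0.45% of all models. Because the rule read all 9 libraries, the members' levels and stage ratios are a description and carry no test.

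Leaf senescence is an ordered dismantling of the leaf, in which chloroplasts are broken down, nitrogen and other nutrients are withdrawn into the tree, and a large part of the transcriptome is switched. Cells stay alive and metabolically active until late, so some transcripts for basic cell functions continue to be made. Transcripts that hold their level through such a switch are used as reference genes, against which other transcripts are measured by PCR. In whole leaves, fewer cells of a type and less RNA per cell cannot be told apart. The identifiers in the deposited table are not paired with gene names, so neither the roles of the members nor marker genes of leaf tissue are given here. Counts were not divided by transcript length, so a higher count of 1 model than of another is not a higher level of transcript.

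Library totals ran from 23766331 to 32319325 counts, and the smallest raw count of any member in any library was 918. Counting error alone would give members a coefficient of variation between 0.84% and 2.66%. The observed coefficient of variation over the 9 libraries ran from 4.36% to 16.5% with a median of 11.4%, and exceeded the counting value in all 199 members, by a median factor of 5.72. The spread of the members is therefore measured well above the counting error. P-values and SEs below rest on the spread between libraries of 1 stage, estimated partly from all tested models together. The biological coefficient of variation fitted in edgeR was at least 0.148 in members, while their observed value went down to 4.36%. The SE of a steady member can therefore be larger than its own libraries would give.

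The ratio of the highest to the lowest normalized count among members ran from 1.12 to 1.5, with a median of 1.41 and quartiles of 1.33 and 1.46. Only 5 members stayed within a ratio of 1.2, 32 within 1.3 and 93 within 1.4, so 106 members lay between 1.4 and the limit. The limit cut through a continuous distribution, since another 120 models that met the other criteria had ratios above 1.5 and up to 1.6. Just inside it stood Gb_01559 at 1.498, Gb_34673 at 1.499 and Gb_24920 at 1.5, and just outside it Gb_34763 at 1.501 and Gb_19293 and Gb_14149 at 1.502 each. At the other edge of the rule, Gb_18080, Gb_26233 and Gb_16437 had lowest normalized counts of 1355, 1359 and 1365. Gb_35113, Gb_39144 and Gb_03838 missed the minimum with lowest values of 1331, 1321 and 1320.3, although their ratios of 1.23, 1.24 and 1.36 lay within the limit.

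**Figure D1:**
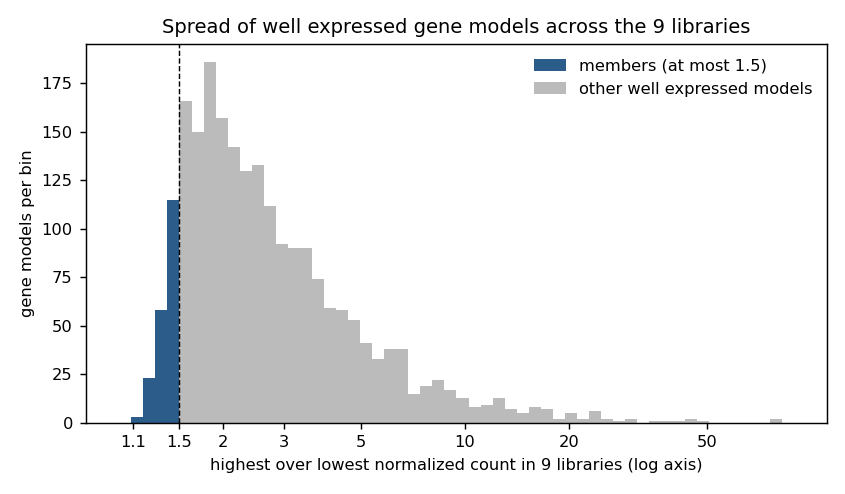
Number of well expressed gene models (y axis) by the ratio of their highest to their lowest normalized count over the 9 libraries (x axis, log scale, bins of equal width). The 199 members (blue) lie at or below the dashed limit of 1.5, on the rising flank of the distribution, and the other 2013 models (grey) reach up to 82.2.

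The 8 members with the smallest spread are given library by library. Gb_39328 had normalized counts of 5216, 4874 and 4912 in the green, 4876, 4938 and 5191 in the turning and 5189.5, 5352 and 5478 in the yellow libraries, a ratio of 1.12. It was slightly higher in yellow leaves, where only the lowest library lay within the green range. Gb_29722 had 1951, 2052 and 1993 in the green, 1782, 2033 and 1864 in the turning and 1988, 2087 and 2001 in the yellow libraries, a ratio of 1.17. Its lowest value came from a turning library, and the 3 stages overlapped. In Gb_10805 the values were 1386, 1422 and 1476 in the green, 1478, 1524 and 1633 in the turning and 1600.5, 1500.5 and 1557 in the yellow libraries, a ratio of 1.18. All turning and all yellow libraries of Gb_10805 stood above the 3 green ones. Gb_16437 reached 1365, 1522 and 1624 in the green, 1372, 1517 and 1609 in the turning and 1452, 1383 and 1463 in the yellow libraries, a ratio of 1.19. Within both the green and the turning stage, its library 1 was lowest and library 3 highest.

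The next members in that order included models with far higher counts. Gb_39345 had 11617, 12616 and 12485 in the green, 13191, 13471 and 11701 in the turning and 11741, 12761 and 13936 in the yellow libraries, a ratio of 1.2 without separation of the stages. Gb_16287 had 12091, 12932 and 13832 in the green, 14039, 13799.6 and 14138 in the turning and 11716, 12280.4 and 12153 in the yellow libraries, a ratio of 1.21. Its turning libraries were close together, and 2 of them lay above every green and every yellow library. Gb_40602 had 6806, 6554 and 5945 in the green, 7248, 6835 and 6561 in the turning and 7190.2, 6587 and 6708 in the yellow libraries, a ratio of 1.22, with its lowest value in a green library. For Gb_06444 the counts were 2139, 2207 and 2135 in the green, 2118, 2416 and 2348 in the turning and 2360.4, 2546 and 2085 in the yellow libraries, a ratio of 1.22, and both its extremes came from yellow libraries. The green libraries of Gb_06444 differed from each other by far less than its yellow ones.

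**Figure D2:**
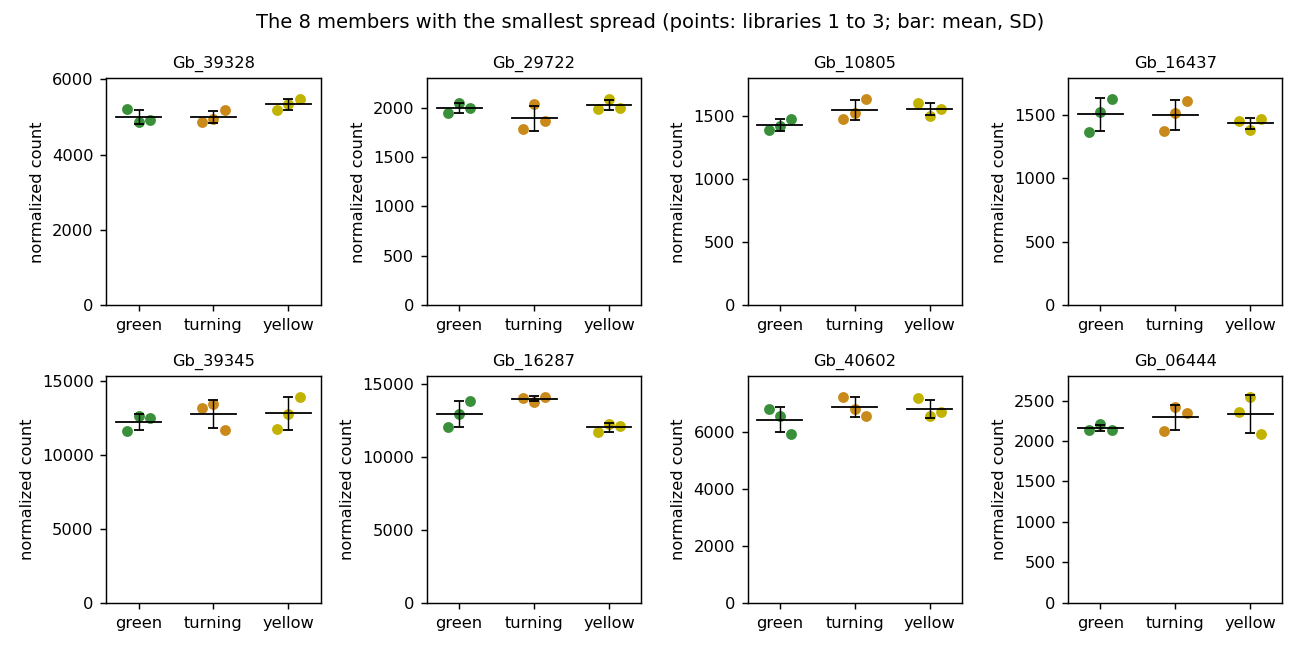
Normalized count (y axis, from 0) of the 8 members with the smallest ratio, in green, turning and yellow leaves. Points are the 3 libraries of a stage, the long bar is the stage mean and the error bar the SD (n = 3). Gb_39328, with a ratio of 1.12, is the flattest, and in Gb_16287 the turning mean stands highest.

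Mean normalized counts of members ran from 1479 to 14314, a range of nearly an order of magnitude, with a median of 2483 and quartiles of 2016 and 3654. The 4 members with the highest mean were Gb_11693, Gb_18091, Gb_34673 and Gb_04045. Gb_11693 averaged 13205 ± 527 at the green, 13875 ± 1708 at the turning and 15863 ± 1383 at the yellow stage (SD of 3 libraries). Gb_18091 averaged 13986 ± 2675 at the green, 13278 ± 1479 at the turning and 14207 ± 1163 at the yellow stage, and single green libraries of it spanned 11080.4 to 16347. The stages overlapped in Gb_18091, and in Gb_11693 every yellow library stood above every green one. The stage means of Gb_34673 were 11913 ± 542, 13809 ± 1032 and 14889.5 ± 2337, in the order green, turning and yellow. For Gb_04045 they were 14743 ± 1087, 12233 ± 2098 and 13469 ± 2441. In Gb_34673 and Gb_04045 the yellow libraries were the most spread out. The ratios of these 4 members lay between 1.46 and 1.499, near the limit. At the low end, Gb_16437, Gb_10805, Gb_36850 and Gb_26233 had overall means of 1479, 1509, 1539 and 1564, with ratios of 1.19, 1.18, 1.25 and 1.298. Gb_36850 had 1583, 1516 and 1631 in the green, 1778, 1462 and 1609 in the turning and 1416, 1429.9 and 1429.5 in the yellow libraries, so its yellow libraries agreed closely and lay below all others. Gb_26233 had 1475, 1359 and 1364 in the green, 1764, 1693 and 1505 in the turning and 1576, 1693 and 1646 in the yellow libraries, with every turning and yellow library above every green one.

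None of the models with the most counts was left out of the list by the third part of the rule alone. The 100 highest models of green and of yellow leaves formed 162 models together, 153 of them with at least 1350 in every library, and 0 of these met the ratio of 1.5. The steadiest of them was Gb_14539 with a ratio of 1.54. Identifiers of the form Novel01095 belonged to 2 of the 199 members (1.01%), against 45 of the 2013 other well expressed models (2.24%) and 1994 of all 43834 models (4.55%). These 2, named after their values were seen, were Novel01095 with a ratio of 1.43 and Novel01745 with a ratio of 1.47.

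Among members single libraries of 1 stage often differed by more than the stage means did. The ratio of the highest to the lowest stage mean had a median of 1.17 and a maximum of 1.38, and 146 of 199 members had a larger ratio between libraries of 1 stage than between the stage means. The same held for 555 of the 2013 other well expressed models, whose stage means had a median ratio of 1.86. A mean of 3 libraries varies less than a single library, so these counts lean toward the spread within stages in both lists. Within stages, the median ratio of the highest to the lowest library was 1.14 for green, 1.15 for turning and 1.21 for yellow leaves over members. Over the other well expressed models it was 1.26 for green, 1.28 for turning and 1.34 for yellow leaves, so yellow libraries were the most variable in both lists. The rule bounded every ratio of the members, so their smaller values were fixed by the choice.

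The small differences left among members were divided into the part that follows the stage, the part that follows the library number and a remainder, on the log2 scale. The median share of a member's variation was 44.9% for the stage, 19.7% for the library number and 24.3% for the remainder. For the other well expressed models the medians were 82.4%, 7.17% and 7.0% for the same 3 parts. The rule bounded the stage differences of members, and the other models exceeded its limit. The gap between the lists is therefore set at least in part by the choice. The stage and the library number each take 2 of the 8 degrees of freedom, or 25%. The stage held more than 50% of the variation in 85 members and the library number in 29 members. Deviations from the stage mean correlated across members between libraries of the same number with r from -0.11 to 0.54 (9 pairs), and between libraries of different numbers with r from -0.47 to 0.29 (18 pairs). These are correlations across 199 gene models that share libraries and size factors, and they overlap between the 2 kinds of pair.

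On the median-of-ratios scale, the highest values of members came most often from yellow libraries and the lowest most often from green ones. The highest value of a member came from a green library in 51, from a turning library in 53 and from a yellow library in 95 of 199 members, and the lowest value in 77, 57 and 65 members. Single libraries held the highest value of between 9 members (turning library 2) and 35 members (yellow library 1). The mean of the yellow libraries lay above that of the green libraries in 126 members and below it in 73. The yellow-over-green ratio of means ran from 0.76 to 1.38 with a median of 1.05, the turning-over-green ratio from 0.75 to 1.32 with a median of 1.01, and the yellow-over-turning ratio from 0.75 to 1.36 with a median of 1.02. All 6 orders of the stages occurred, from 50 members with means increasing from green through turning to yellow down to 23 members each with yellow lowest and turning highest or with turning lowest and green highest. Means decreasing in that order were found in 27 members. Means increasing through the season were found in 25.1% of members, against 57.4% of the other well expressed models. These directions depend on the scaling. With TMM, upper-quartile factors and library totals the yellow mean lay below the green mean in 86, 189 and 199 members.

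**Figure D3:**
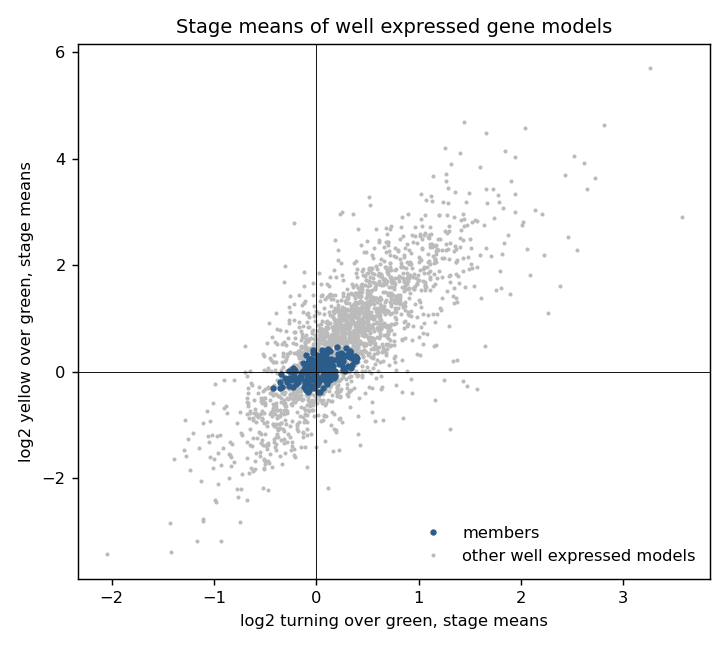
Log2 ratio of stage means of normalized counts, yellow over green (y axis) against turning over green (x axis), for members (blue) and the other well expressed gene models (grey). Both axes share the green libraries. Members occupy the centre, with yellow-over-green ratios between 0.76 and 1.38, and the other models spread mostly upward, with a median ratio of 1.56.

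The largest shifts between green and yellow leaves still allowed by the rule were these. Gb_13272 had 4593, 4865 and 4659 in the green, 4993, 5866 and 5373 in the turning and 6742, 6795 and 5885 in the yellow libraries. Its yellow libraries all lay above its green ones, and the log2 fold change in yellow over green leaves was 0.44 ± 0.12 (SE; edgeR fit with TMM scaling). Gb_17306 had 2546, 2603 and 2434 in the green, 3141, 3257 and 2899.6 in the turning and 3456, 3595 and 3224 in the yellow libraries. Here the turning libraries already stood above all green ones, and the yellow-over-green log2 fold change was 0.41 ± 0.11 (SE). In the other direction, Gb_29448 had 1976, 2234 and 1888 in the green, 1780.5, 1966 and 2001 in the turning and 1618, 1514 and 1512 in the yellow libraries. All yellow libraries were below all green and turning ones, with a log2 fold change of -0.42 ± 0.12 (SE) in yellow over green leaves. Gb_04609 had 2562, 2671 and 2298 in the green, 2522, 2605 and 2478 in the turning and 2036, 1833 and 1875 in the yellow libraries. It differed little between turning and green leaves and was lower in all yellow libraries, with a log2 fold change of -0.42 ± 0.11 (SE) in yellow over green leaves. These fold changes depended on the scaling. With upper-quartile factors they were 0.11 for Gb_13272 and 0.08 for Gb_17306, both no longer called, and -0.75 for both Gb_29448 and Gb_04609. With library totals the sign turned for Gb_13272 (-0.28) and Gb_17306 (-0.30), and the values were -1.13 for both Gb_29448 and Gb_04609. Gb_13272 was also not called in edgeR without green library 1 (log2 fold change 0.41) or with no filter on low counts (0.37). Gb_29448 was not called without green library 2 (-0.35).

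Other members had their highest or lowest mean at the turning stage. Gb_15769 had 1799, 1877 and 2306 in the green, 2475, 2514 and 2549 in the turning and 1951, 2087 and 2222 in the yellow libraries, so that its turning mean was 1.23 times the mean of green and yellow leaves. Its turning libraries lay above all others. Gb_25569 had 2452, 2240.1 and 2562 in the green, 3286, 2962 and 2983 in the turning and 2434, 2594 and 2853 in the yellow libraries, with a turning mean 1.22 times that of the outer stages. Gb_08109 had 3008, 2694 and 3001 in the green, 2234, 2337 and 2277 in the turning and 2672, 2830.3 and 2944 in the yellow libraries, a turning mean of 0.799 times the outer stages, and no overlap of turning with other libraries. Gb_33811 had 2827, 3059 and 2719.7 in the green, 2094, 2245 and 2094 in the turning and 2161, 2677 and 2104 in the yellow libraries, and at 0.83 times the outer stages its turning libraries overlapped with the yellow ones. The yellow libraries of Gb_15769 all lay within its green range.

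A bound of 1.5 on the ratio did not remove all calls from the test across gene models. All 199 members were among the 23042 models tested, and the rule used the same comparisons, so the shares called are set by the choice and nothing is read from them. In yellow versus green leaves 28 members were called, 17 higher and 11 lower with TMM scaling, against 62.1% of all tested models, 30.2% higher and 31.9% lower (edgeR, quasi-likelihood F test at a Benjamini-Hochberg adjusted p below 0.05). The called members had log2 fold changes between 0.27 and 0.44 in size, and the SE of that fold change had a median of 0.13 over all members. Without green library 1, 2 and 3 the count of members called was 8, 8 and 12, against 54.2%, 54.1% and 58.3% of tested models. Without turning library 1, 2 and 3 it was 20, 13 and 19, against 60.3%, 59.8% and 60.5%. Without yellow library 1, 2 and 3 it was 17, 16 and 13, against 57.1%, 56.6% and 58.0%. The yellow libraries stood wholly above the green ones in 40 members and wholly below in 20, where the shares of all tested models were 33.0% and 34.9%.

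In turning versus green leaves 7 members were called, 6 higher and 1 lower with TMM scaling, against 24.1% of tested models, 11.8% higher and 12.3% lower (edgeR). With the library number as a block there were 14, 11 higher and 3 lower, against 36.8% of tested models, 17.6% higher and 19.3% lower. The count of members was 0 without green library 1 or 2, against 9.31% and 8.36% of tested models. It was also 0 without turning library 1, 2 or 3, against 14.1%, 15.4% and 10.6%. In these fits between 12 and 22 members had an unadjusted p below 0.05 in edgeR. Without green library 3 the count was 2, against 20.5% of tested models. Calls thus fell among all tested models too. The turning libraries stood wholly above the green ones in 42 members and wholly below in 15, with 22.0% and 24.8% of all tested models. In yellow versus turning leaves 11 members were called, 4 higher and 7 lower with TMM scaling, against 41.5% of tested models, 20.5% higher and 21.0% lower (edgeR). That count was 6 without green 1 or green 2, 7 without green 3, 5 without turning 1 or turning 3, 2 without turning 2, and 7, 3 and 4 without yellow 1, 2 and 3. These fits called between 30.6% (without turning 2) and 40.0% (without green 3) of all tested models. Yellow libraries stood wholly above turning ones in 21 members and wholly below in 26, with 25.8% and 26.3% of all tested models. Over the 3 stages together the F test called 21 members, against 60.3% of tested models. When 1 library was left out it called between 2 and 13 members, against 50.5% to 56.9% of tested models. The lowest count of members was without green library 1 and the highest without yellow library 1. It was 3 without green 2, 7 without green 3, 6, 4 and 9 without turning 1, 2 and 3, and 4 and 10 without yellow 2 and yellow 3.

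The members were steady on the median-of-ratios scale, while their share of all reads differed between stages. The share of all counts that fell on members was 3.06% ± 0.079 at the green, 2.73% ± 0.032 at the turning and 1.91% ± 0.084 at the yellow stage (SD of 3 libraries). No stage overlapped with another, with 2.999% the lowest green, 2.71% to 2.77% the turning and 2.01% the highest yellow library. The rule held the normalized counts of members nearly level, so this share follows the size factor of a library divided by its total. Its differences between stages are therefore set by the choice and the scaling. The 162 models among the 100 highest of green or yellow leaves held 23.0% ± 1.68, 23.2% ± 0.98 and 26.4% ± 2.30 in the same stages. Scaling factors built from the members alone, as geometric means over the 199 models, were 0.97 to 1.03 times the DESeq2 size factors, a closeness that the rule itself brings about. Relative to library totals those member-based factors were 1.195 to 1.26 in green, 1.058 to 1.102 in turning and 0.735 to 0.796 in yellow libraries.

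The list of members depended on the scaling. With TMM factors, a trimmed mean of log ratios, 198 models met the rule and 186 of them were members, 93.5% of the members and 93.9% of the TMM list. With upper-quartile factors 268 models met it and 87 were members, which is 43.7% of the members and 32.5% of that list. With library totals alone 237 models met it and 8 were members, 4.02% of the members and 3.38% of that list. The median yellow-over-green ratio of members was 1.05 under DESeq2 size factors, 1.03 under TMM, 0.82 under upper-quartile factors and 0.62 when library totals were used. The yellow mean lay below the green mean in 73, 86, 189 and 199 members under the same 4 scalings. Among all tested models the median log2 yellow-over-green ratio was -0.03, -0.06, -0.39 and -0.77 under these scalings, and the median member stood 0.09 to 0.10 above it in each. A change of scaling moves all models nearly alike, so that last difference could hardly change. With library totals in the edgeR test, 197 members were lower and 0 higher in yellow than in green leaves, against 49.9% of all tested models lower and 16.5% higher.

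The direction of the called members turned with the scaling, in each comparison of stages. In yellow versus green leaves, 21 members were higher and 5 lower with DESeq2 size factors in edgeR, against 62.1% of tested models called, 31.0% higher and 31.2% lower. The DESeq2 test gave 27 higher and 10 lower, against 65.0% of tested models called. Upper-quartile factors gave 0 higher and 73 lower, against 63.0% (23.3% higher, 39.8% lower), library totals the 197 lower above, against 66.4% in all, and no filter on low counts 1 higher and 12 lower, against 44.8% (21.0% higher, 23.8% lower).

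In turning versus green leaves, 5 members were higher and 2 lower with DESeq2 size factors in edgeR, against 24.0% of tested models (11.5% higher, 12.5% lower). The direction was the opposite with upper-quartile factors, 0 higher and 9 lower against 24.7% (8.65% higher, 16.0% lower), and with library totals, 0 higher and 12 lower against 26.1% (7.09% higher, 19.0% lower). The DESeq2 test gave 14 higher and 6 lower, against 32.7% (16.0% higher, 16.7% lower), and no filter gave 0, against 14.1%, with 22 members at an unadjusted p below 0.05 in edgeR.

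In yellow versus turning leaves, the DESeq2 size factors in edgeR gave 6 higher and 3 lower, against 41.4% of tested models (21.5% higher, 19.9% lower), and the DESeq2 test 13 higher and 8 lower, against 46.3% (24.1% higher, 22.2% lower). Lower members made up all calls with upper-quartile factors, 40 against 42.9% (15.9% higher, 27.0% lower), with library totals, 146 against 49.6% (10.4% higher, 39.2% lower), and with no filter, 7 against 28.0% (12.7% higher, 15.4% lower). For the F test over the 3 stages the share of tested models called was 65.3% with library totals, 61.0% with upper-quartile factors, 65.7% in the DESeq2 test and 42.6% with no filter.

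**Figure D4:**
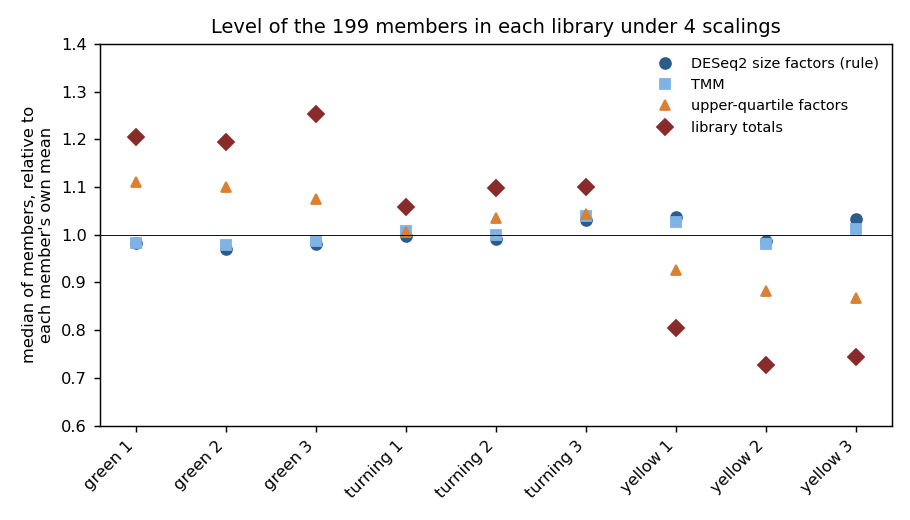
Median over the 199 members of the level in a library divided by the member's own geometric mean over the 9 libraries (y axis), for each library (x axis) under 4 scalings. With DESeq2 size factors and TMM the medians stay between 0.97 and 1.04, and with library totals they lie between 1.06 and 1.25 in green and turning libraries and between 0.73 and 0.81 in yellow libraries.

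The 8 models that met the rule under all 4 scalings were Gb_22382, Gb_05634, Gb_05425, Gb_21890, Gb_08103, Gb_13283, Gb_21093 and Gb_08315. Gb_22382, the steadiest of them with DESeq2 size factors, had 5322, 5565 and 5324 in the green, 5291, 5626 and 5403 in the turning and 6640.5, 6790.4 and 6610.1 in the yellow libraries. Its green and turning libraries were interleaved and its yellow libraries stood above both. Gb_05634 had 2983, 2849 and 2921 in the green, 3219.8, 3012 and 3124 in the turning and 3822, 3489 and 3653 in the yellow libraries, and Gb_21890 had 5101, 5296 and 5589 in the green, 5823, 5133 and 6348 in the turning and 7173, 6869.8 and 7316 in the yellow libraries. The yellow libraries of Gb_05634 and Gb_21890 were above all others. In Gb_08103 the counts were 2139, 2141 and 2039.7 in the green, 1824, 2074 and 1987 in the turning and 2627, 2624 and 2616 in the yellow libraries, again with yellow libraries on top. In all 8 the yellow-over-green ratio was above 1 with DESeq2 size factors, between 1.24 and 1.34, and below 1 with library totals, between 0.739 and 0.798. With upper-quartile factors it ran from 0.97 to 1.04, and the ratio of the highest to the lowest library from 1.11 for Gb_05634 to 1.32 for Gb_08103. The median yellow-over-green ratio of members went from 1.05 with DESeq2 size factors to 0.62 with library totals, and scaling moves all models nearly alike. Meeting the limit under both therefore required a ratio above 1 with the former and below 1 with the latter. The directions in these 8 models are set by the choice, and their upper-quartile ratios near 1 at least in part.

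The level was also read in single libraries left out of the choice. Each library was left out in turn, the rule was applied to the other 8, and the level in the left-out library was compared with the geometric mean of the others. The left-out library was scaled by its size factor from all 9 libraries, which rests on many models and so is not fully separate. The rule then chose 212 to 284 models, of which 191 to 214 also stayed within 1.5 once the left-out library was added. The median distance of the chosen models was 1.11-fold to 1.13-fold in left-out green, 1.09-fold to 1.11-fold in turning and 1.13-fold to 1.15-fold in yellow libraries. For well expressed models that were not chosen, and not among the 100 highest, it was 1.32-fold to 1.43-fold in green, 1.15-fold to 1.19-fold in turning and 1.44-fold to 1.501-fold in yellow libraries. Of the chosen models 72.6% to 78.5% lay within 1.2-fold in left-out green libraries, 73.7% to 86.3% in turning and 61.5% to 65.9% in yellow libraries, against 24.4% to 31.5%, 52.4% to 62.0% and 22.1% to 25.8% of the models not chosen. The choice still used the other libraries of the same stage and date, and the models not chosen had already exceeded the ratio there. These differences are therefore partly set by the choice and are a description. No test was made of them, since models of 1 library are not replicates of a stage.

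**Figure D5:**
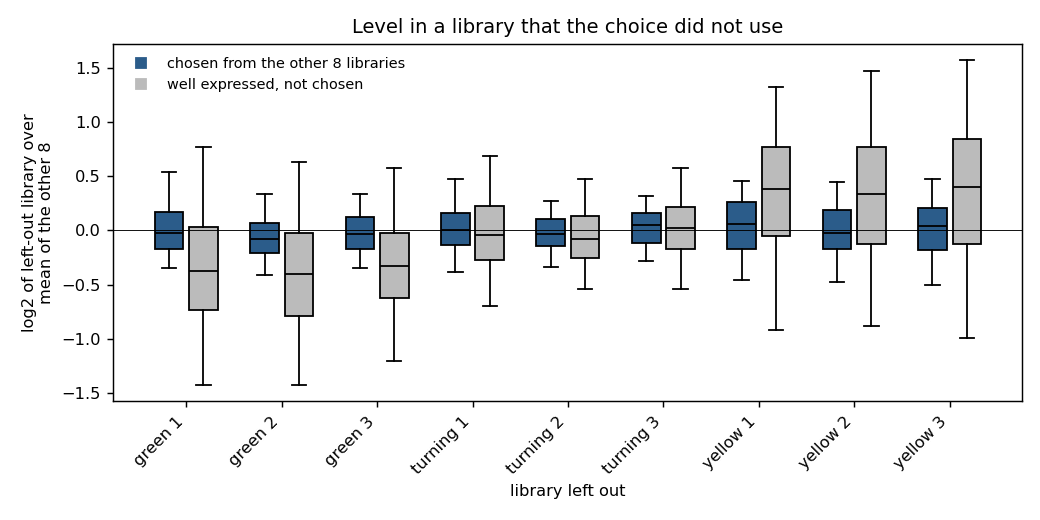
Log2 ratio of the level in a left-out library to the geometric mean of the other 8 (y axis), by library left out (x axis), for models chosen by the rule from the other 8 libraries (blue) and for well expressed models not chosen (grey). The line in a box is the median, the box spans the quartiles and the whiskers the 5th to 95th percentile. Chosen models centre near 0 in every library, with medians from -0.08 to 0.05, and the models not chosen centre below 0 in green and above 0 in yellow libraries.

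The same was done with all 3 libraries of a number left out, which leaves 2 libraries per stage for the choice. The rule chose 364, 339 and 362 models without numbers 1, 2 and 3. In the 3 libraries left out, 1 per stage, the ratio of the highest to the lowest level had a median of 1.33, 1.25 and 1.29 for the chosen models and stayed within 1.5 for 75.8%, 87.3% and 82.6% of them. For well expressed models not chosen the medians were 2.05, 1.95 and 1.92, and 19.4%, 23.8% and 24.5% stayed within 1.5. Libraries of different numbers at 1 stage share the sampling date, so the libraries left out are not independent of the choice. The gap between chosen and other models is partly set by it.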

How the data were processed

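The deposited values are raw counts of reads for 43834 gene models in 9 libraries. Listed in the submitters' processing notes, without roles, are CASAVA 1.8, HISAT2 2.0.4 and HTSeq 0.6.1. Genome build, annotation, strand setting and read filters: not given in the sources used here. Models that overlap or share reads with near-identical copies are therefore uncertain. Size factors were DESeq2 1.42.0 median-of-ratios factors over the 9 columns. A quasi-likelihood model in R 4.3.3 with edgeR 4.0.16 was fitted to the 23042 models left by filterByExpr (minimum count 10, minimum total 15). It used TMM, robust = TRUE and stage as the only term. The same code was also run on simulated data, as a check of the code alone. Tests were two-sided with Benjamini-Hochberg adjustment over all models tested, and the SE of a fold change was derived from its F statistic. Libraries of a stage differed by more than sampling noise (chi-square per degree of freedom from 46.7 to 152), so no library was a second copy of another. Whether they come from separate trees is not stated, and the spread may be technical.

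Library numbers were read as pairing the samples, on the data alone. Deviations of log2 CPM (computed here) from stage means correlated with r from 0.24 to 0.66 in the 9 same-number pairs. In pairs of different numbers r ran from -0.52 to 0.03. The main fit, with stage as the only term, did not use this pairing, so its SEs and calls are unpaired. The fit with the library number as a block is given as an alternative. The members, the rule and the lists were chosen with earlier results of these data known. Gene models are named by rank: the smallest ratios, those next to each limit, the highest and lowest means, the largest stage shifts and those that met the rule under all 4 scalings, unless stated. The lists of functions and of cell type markers listed for this work need gene names and were not used here.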

Additional observations from a re-analysis of the deposited data

How the results depend on the processing

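The number of members was 199. It was 113 with a minimum of 2000 in place of 1350, 93 with a ratio of at most 1.4, 319 with 1.6, 732 with the ratio taken on stage means, and 364, 339 and 362 without the libraries of number 1, 2 and 3. TMM, library totals, upper-quartile factors, a minimum of 1000 and keeping the 100 highest models changed the number by less than 1.5 times. Leaving out 1 library gave 212 to 284. The median ratio of the highest to the lowest value, 1.41, was 1.98 with library totals, 1.52 with upper-quartile factors and 1.375 to 1.402 with 1 library left out. For the median yellow-over-green ratio, TMM gave 1.03, upper-quartile factors 0.82 and library totals 0.62.

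Members called in edgeR, in the order yellow versus green, turning versus green, yellow versus turning and the F test over the 3 stages, were 28, 7, 11 and 21. The shares of all tested models called were 62.1%, 24.1%, 41.5% and 60.3%. With library totals 197, 12, 146 and 186 members were called, against 66.4%, 26.1%, 49.6% and 65.3% of tested models. With no filter 13, 0, 7 and 7 members were called, against 44.8%, 14.1%, 28.0% and 42.6%. In turning versus green leaves with no filter, 22 members had an unadjusted p below 0.05 in edgeR. With upper-quartile factors 73, 40 and 61 members were called in the comparisons other than turning versus green, against 63.0%, 42.9% and 61.0%. The DESeq2 test called 37, 20, 21 and 41 members in the same order, against 65.0%, 32.7%, 46.3% and 65.7%. The replicate block gave 14 in turning versus green leaves, against 36.8%, and moved no other of these counts by 1.5 times. With 1 library left out the ranges were 8 to 20, 0 to 6, 2 to 7 and 2 to 13. The shares of all tested models called in those fits were 54.1% to 60.5%, 8.36% to 25.8%, 30.6% to 40.0% and 50.5% to 56.9%. With library totals, the yellow-over-green log2 fold change turned to -0.28 for Gb_13272 and -0.30 for Gb_17306. The cause of these changes was not tested. The smallest count of a member in a library was 918, and the effect of depth on the list was not tested.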

Other observations

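The share of models within a ratio of 1.5 was also taken below the minimum, by the lowest normalized count in the 9 libraries. It was 3.06% of 2388 models with a lowest value from 100 to 200, 6.35% of 3305 models from 200 to 500, 8.53% of 2251 models from 500 to 1000 and 9.74% of 883 models from 1000 to 1350. Above the minimum it was 10.3% of 836 models up to 2000, 9.40% of 872 models up to 4000, 7.01% of 328 models up to 8000 and 4.55% of 176 models above that. Counting error is larger at low counts, and its part in these shares was not tested.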
